A study of Mus musculus with 3 samples.

Results

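The genes described here are the mouse ion pumps, cation-coupled cotransporters and exchangers, and water channels. They were taken by symbol from the 52550 genes of the deposited table. The 71 members are the Na,K-ATPase alpha and beta subunits and their FXYD partners, the calcium pumps of the Atp2 family, the Slc4, Slc8, Slc9, Slc12 and Slc24 carriers, and the aquaporins. RNA came from superior cervical ganglia, which hold the sympathetic nerve cells that supply the head, of male mice aged 10 weeks with the genotype LepRCRE::Ai32. These mice carry Cre recombinase at the leptin receptor gene and a Cre-dependent reporter, and live reporter-positive cells were sorted and made into Smart-Seq2 libraries. Such a reporter stays on once Cre has acted, so it marks cells that have the driver gene active and cells that had it active before. There was 1 group, LepR+ cells, with 3 libraries labelled biological replicates, so n = 3 throughout, and the sources do not say how many cells or animals went into each.

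The sodium pump, an alpha subunit that splits ATP and a beta subunit that carries it to the membrane, exports sodium and imports potassium, and FXYD proteins tune it. The sodium gradient it builds drives the coupled carriers: NKCC1 (Slc12a2) brings chloride in with sodium and potassium, K-Cl cotransporters take it out, and Slc4, Slc8 and Slc9 carriers move bicarbonate, calcium and protons. Glial cells use these proteins to clear potassium and buffer pH around nerve cell bodies, and barrier cells of nerve use them to set the fluid inside. Calcium pumps fill the endoplasmic reticulum (SERCA) and the Golgi (SPCA) or send calcium out of the cell (PMCA), and aquaporins pass water.

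Reads on genes, recovered from the deposited values, came to 8705118, 8493736 and 8188240 in replicates 1, 2 and 3, and mitochondrially encoded genes took 19.9% to 21.1% of TPM (the deposited unit, a level per gene length relative to the library total). Marker lists of cell types were read beside the sort label, which they do not test. The 12 markers of satellite glia and Schwann cells summed to between 27846 and 32822 TPM, the 8 of fibroblasts to between 4463 and 6613 TPM, and the 8 of perineurial cells, the cell type in the series title, to between 350.5 and 623 TPM. In the glial list, Fabp7 (13012 to 16339 TPM) and Apoe (8061 to 9528 TPM) made up most of the sum. By the test against 1 TPM described in the next paragraph, 10 of its 12 markers lay above 1 TPM, while Foxd3 and Glul passed neither way. Over all genes tested, 16.4% lay above and 19.9% below, a share to set beside the counts of every marker list. Sox10 had 26.7, 165 and 51.6 TPM. Of the 8 perineurial markers, 3 lay above 1 TPM (Cldn1, Tjp1 and Sfrp5), 4 passed neither way, and Krt19 had no read. Of the fibroblast markers, Dcn (3166 to 4433 TPM) and Lum (949 to 2574 TPM) made up most of the sum, Col3a1, Col1a2 and Col1a1 also lay above 1 TPM, Pdgfra passed neither way, Dpt lay below and Pi16 had no read. The makeup of the libraries by cell type was not tested, and in bulk samples fewer cells of a type and less RNA per cell cannot be told apart. Sums for the other lists were 314 to 394 TPM for 8 endothelial markers, 103 to 477 TPM for 7 mural markers, 55.9 to 89.5 TPM for 8 sympathetic neuron markers, 1.55 to 102 TPM for 7 macrophage markers and 1.02 to 33.1 TPM for 5 erythroid markers, where Hba-a1 and Hbb-bs had no read.

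A small set of transporters was high in every library and most of the others were barely read. To sort them, limma compared the mean log2(TPM + 1) of each of 27567 genes with a read to that of a gene at 1 TPM, with Benjamini-Hochberg adjustment and a threshold of 0.05. Of the 71 members, 15 lay above 1 TPM (22.7% of the 66 tested, against 16.4% of all genes tested) and 26 lay below it (39.4%, against 19.9%), while 25 passed neither way and 5 had no read. The calls below 1 TPM ended, to 0 of the members and 0 of all genes, at a level of 0.5 TPM, with a filter of 0.5 TPM on the mean and without mitochondrially encoded genes, and this holds for the lists that follow too. Among the 15 were Slc12a2, Fxyd1, Atp1b3, Aqp1, Slc4a4, Atp2c1, Atp1b2, Atp2a2, Fxyd5, Atp1b1, Slc12a4, Aqp4 and Atp2b1 (limma, adjusted p from 0.00364 to 0.0412). The 15 were also the members with at least 10 TPM in every library, from 10.7 to 569.6 TPM and from 130 to 9488 reads. Together they made up 96.4%, 92.6% and 87.0% of the members' TPM in replicates 1, 2 and 3, and all members together took 0.213%, 0.202% and 0.239% of each library. The median member lay at -0.57 relative to the tested level on the log2(TPM + 1) scale, against -0.12 for all genes tested. Without replicate 1 or without replicate 2 limma called 0 of the 15 (lowest adjusted p = 0.0689 and 0.0653), as it called 0 of 27567 genes either way. At an unadjusted p under 0.05, 12 members lay above and 27 below without replicate 1, and 15 above and 28 below without replicate 2. Without replicate 3, limma kept 6 of the 15 (adjusted p from 0.0332 to 0.0375), among them Slc12a2, Fxyd1, Atp1b3, Atp1b2 and Aqp4, and 13 members lay below.

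**Figure D1:**
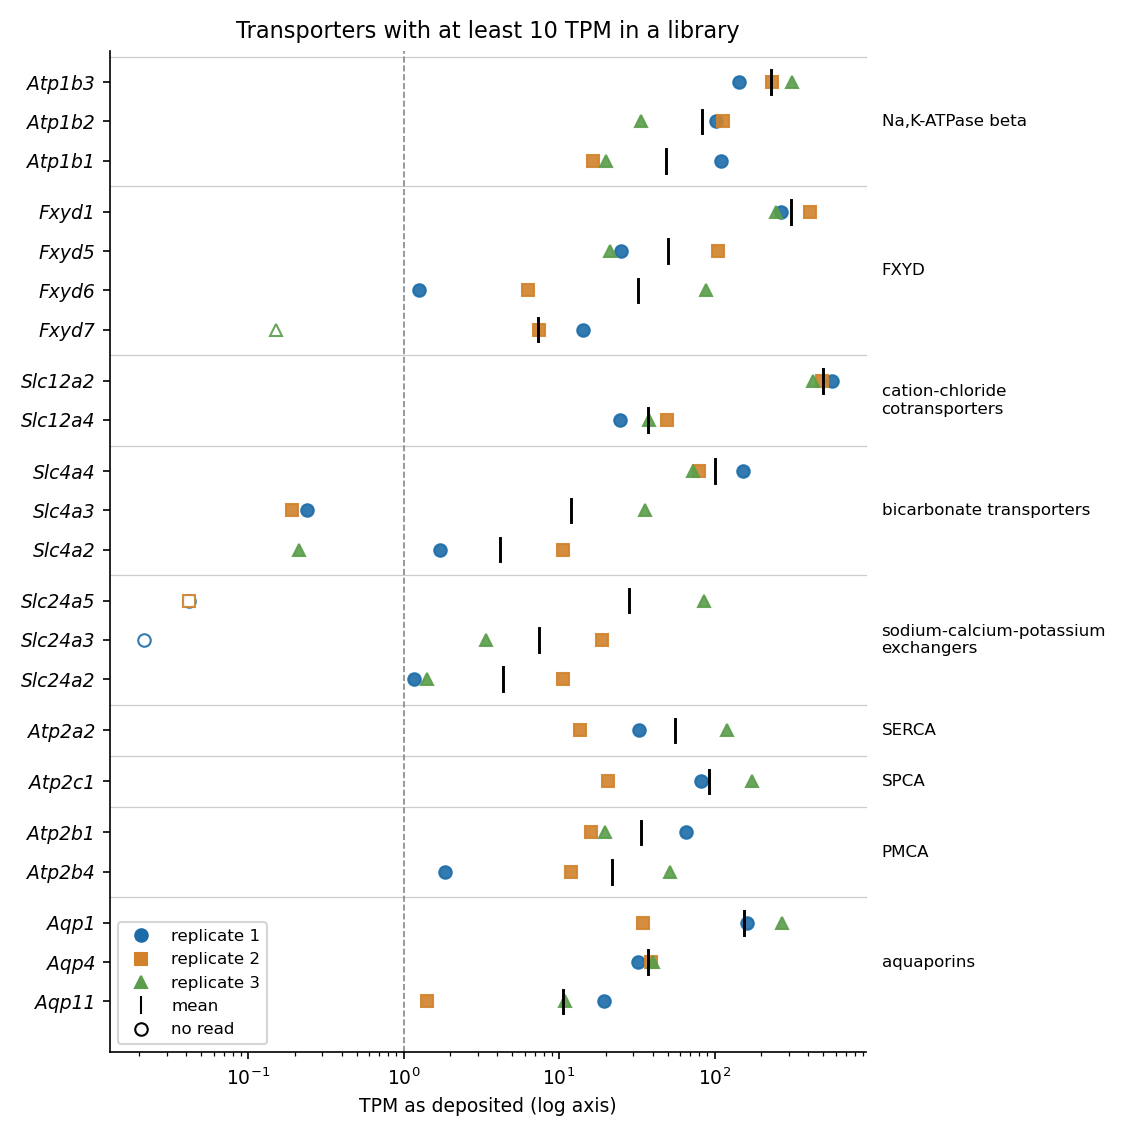
TPM as deposited (log axis) of 22 members with at least 10 TPM in a library, by family, with 1 symbol per replicate, hollow where the library had no read (the value then holds only the 0.25 read added to each gene), and a bar at the mean. The dashed line is 1 TPM. Slc12a2 stood highest, at 432.9 to 569.6 TPM, while Slc24a5 had 85.0 TPM in replicate 3 and no read in the others.

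Beta subunits of the sodium pump summed to nearly the same level in each library while their makeup differed. The 4 beta genes together had 354, 365 and 369 TPM, a mean of 363 ± 7.59 TPM (SD, n = 3). This is 1 of 12 family sums, and that of the FXYD genes was 403 ± 115 TPM. Whether the beta sum is held level was not tested. Atp1b3 (chromosome 9, 96332655 to 96364442 of GRCm38) had 143, 236 and 315 TPM, lowest in replicate 1. Atp1b2, an adhesion molecule on glia, had 101.7, 113 and 33.8 TPM, lowest in replicate 3. Atp1b1, the most widespread beta isoform, had 109.5, 16.5 and 20.1 TPM, high in replicate 1 alone. Atp1b3 thus held 40.3%, 64.5% and 85.4% of the beta TPM. Atp1b1 minus Atp1b3 was -2.68 ± 1.99 in log2(TPM + 1), below 0 in 3 of 3 libraries, and Atp1b1 minus Atp1b2 was -1.11 ± 1.44, below 0 in 2 of 3 (SD, n = 3; exact sign-flip test, p = 0.25 and 0.5, adjusted p = 0.375 and 0.545 over 12 pairs). With 3 libraries this exact two-sided test cannot go below p = 0.25. Atp1b1 shares 575 exon bases with Nme7 on the opposite strand, which had 243, 749 and 707 reads. Whether counting used the strand is not stated, so how reads on such shared bases were assigned is not known. This limit concerns the shared bases alone, not all reads of the overlapping partners. The fourth beta gene, Atp1b4, a muscle form that has lost the pump role in placental mammals, had 1, 0 and 0 reads.

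Among the FXYD partners Fxyd1 led in all 3 libraries. Fxyd1 (ENSMUSG00000036570.14, chromosome 7, 31051678 to 31057199, reverse strand) encodes phospholemman, which lowers the sodium affinity of the pump until it is phosphorylated. It had 268, 409 and 250.3 TPM from 1494, 2286 and 1309 reads, with a mean of 308.8 ± 86.9 TPM (SD, n = 3; limma, adjusted p = 0.00364). It held 86.3%, 76.9% and 68.3% of the FXYD TPM. Fxyd5, or dysadherin, which weakens cell adhesion, had 25.1, 105 and 21.4 TPM and was highest in replicate 2. Fxyd6, a pump regulator of brain and inner ear, had 1.26, 6.30 and 88.5 TPM and was high in replicate 3 alone (limma, adjusted p = 0.218). Fxyd7, a brain regulator, had 25, 13 and 0 reads, or 14.3 and 7.47 TPM in replicates 1 and 2. Fxyd3 had 1.63, 4.05 and 5.02 TPM from 20, 50 and 58 reads, and it shares 2059 exon bases with Lgi4 on the opposite strand, which had 36, 31 and 36 reads. The kidney forms Fxyd2 and Fxyd4 had at most 2 and 4 reads in a library. Macrophage markers, of which 0 of 7 lay above 1 TPM, summed to 1.55, 85.1 and 102 TPM, the same order as Fxyd6, with Cd68 at 0, 196 and 0 reads, Tyrobp at 0, 33 and 120 and C1qa at 1, 0 and 1 reads. Their part in the Fxyd6 levels was not tested.

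Fxyd5, Fxyd7, Fxyd1 and Fxyd3 lie side by side on chromosome 7, all on the reverse strand, with 31 bases between Fxyd5 and Fxyd7, 210 between Fxyd7 and Fxyd1, and 10972 between Fxyd1 and Fxyd3. The mean level of these neighbours was 50.4, 7.29, 308.8 and 3.57 TPM in that order. The RefSeq promoter windows (250 bases before to 50 after the gene start, GRCm38.p6) of the 3 with an entry are shown because they belong to genes that adjoin and yet differ in level in these libraries. The RefSeq start lies inside the gene as annotated in M21, by 2346 bases for Fxyd1, 150 for Fxyd5 and 7 for Fxyd3, so the Fxyd1 window does not cover the M21 start. Capitals mark a match, on either strand, to the TATA box, the CCAAT box or the GC box (letters below).
Fxyd1, chr7:31054804-31055103, reverse strand: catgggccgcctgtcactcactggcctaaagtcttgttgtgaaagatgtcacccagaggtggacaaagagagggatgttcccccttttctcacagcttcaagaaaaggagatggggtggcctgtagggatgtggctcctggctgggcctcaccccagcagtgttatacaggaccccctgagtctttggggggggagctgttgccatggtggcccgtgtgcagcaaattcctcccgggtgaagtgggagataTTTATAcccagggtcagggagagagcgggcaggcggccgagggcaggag
Fxyd5, chr7:31042282-31042581, reverse strand: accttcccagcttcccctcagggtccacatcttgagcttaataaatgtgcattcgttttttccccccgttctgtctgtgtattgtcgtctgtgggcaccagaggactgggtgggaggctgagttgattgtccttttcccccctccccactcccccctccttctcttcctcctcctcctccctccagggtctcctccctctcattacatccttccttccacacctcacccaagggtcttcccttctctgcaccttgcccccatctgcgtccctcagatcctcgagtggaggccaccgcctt
Fxyd3, chr7:31076648-31076947, reverse strand: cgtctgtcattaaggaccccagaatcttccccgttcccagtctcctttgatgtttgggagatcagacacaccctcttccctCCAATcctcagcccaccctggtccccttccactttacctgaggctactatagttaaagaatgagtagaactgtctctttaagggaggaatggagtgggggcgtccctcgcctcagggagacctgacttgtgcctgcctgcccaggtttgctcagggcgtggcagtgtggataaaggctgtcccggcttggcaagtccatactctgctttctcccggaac
The Fxyd1 window held 1 match to the letters TATAAA, read on the other strand and lying after the RefSeq start, within the last 50 bases. The Fxyd3 window held 1 match to the letters CCAAT. The Fxyd5 window held neither of these, and none of the 3 windows held the GC box, GGGCGG. Of all 32851 promoter windows in the table, 13.6% hold the TATA box, 37.4% the CCAAT box and 35.7% the GC box, and of the 68 windows of 52 members, 7, 21 and 31 do. A match describes letters in this window and says nothing of a factor's binding.

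Other proteins that bind the sodium pump were also read. For comparison with this list and those that follow, 16.4% of all genes tested lay above 1 TPM and 19.9% below. Of 12 genes for related P-type pumps and NKAIN proteins, membrane proteins that interact with the pump's beta subunit in mouse, 3 lay above 1 TPM, 4 below, 4 neither and 1 had no read. Nkain4 had 319, 343 and 277 TPM, 313 ± 33.1 on average, and Nkain2 had 174, 93.4 and 360.5 TPM, 209 ± 137 on average (SD, n = 3; limma, adjusted p = 0.00364 and 0.00993). Atp13a3, a polyamine pump of endosomes, had 91.5 ± 30.7 TPM. Nkain4 was thus at a level like that of Fxyd1, whereas Nkain1 had no read and Nkain3 had 1, 1 and 3. The gastric and colonic proton pumps Atp4a and Atp12a had at most 2 reads in a library.

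**Figure D2:**
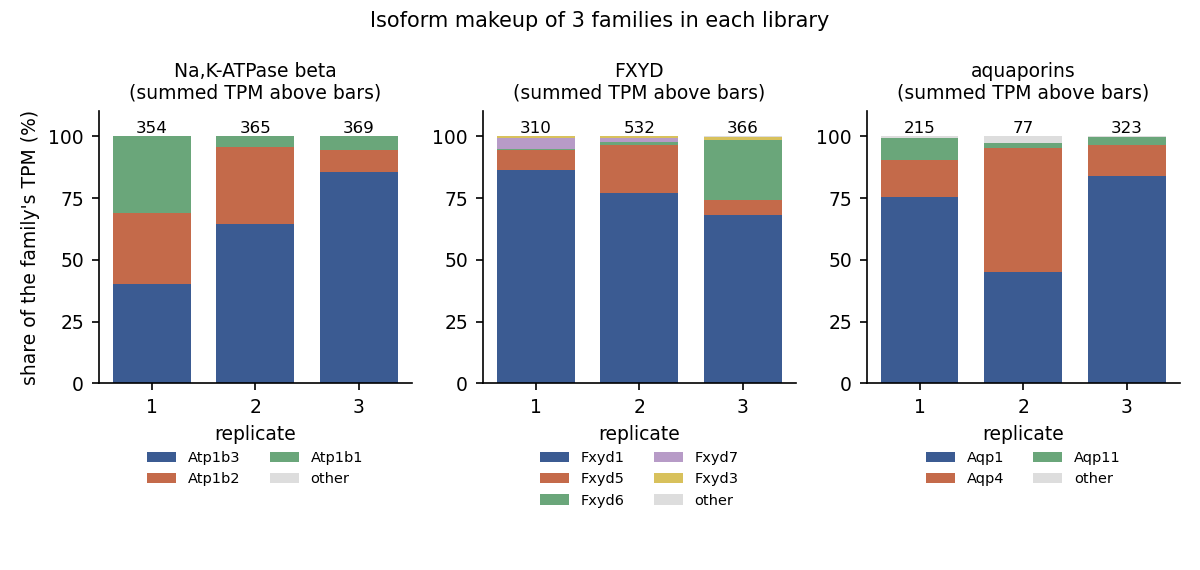
Share of each family's TPM (percent, y axis) held by its genes in replicates 1, 2 and 3 (x axis), with the family's summed TPM above each bar. Fxyd1 led the FXYD pool in every library, Atp1b3 held 85.4% of the beta pool in replicate 3, and Aqp1 held 44.9% to 83.9% of the aquaporin pool.

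Slc12a2 was the most abundant of the 71 genes in every library. Slc12a2 (ENSMUSG00000024597.10, chromosome 18, 57878678 to 57946821, forward strand), the chloride-importing NKCC1, had 569.6, 488 and 433 TPM from 9488, 8147 and 6754 reads. Its mean was 496.9 ± 68.8 TPM (SD, n = 3), 7.95 ± 0.17 (SE) above the tested level in log2(TPM + 1) (limma, adjusted p = 0.00364). K-Cl cotransporters, which take chloride out, were also read. Slc12a4, the widespread KCC1 that responds to swelling, had 24.6, 49.7 and 37.7 TPM (limma, adjusted p = 0.00803). Slc12a7, or KCC4, had 6.31, 1.30 and 0.602 TPM, and Slc12a5, the neuronal KCC2, had 1, 1 and 2 reads. Slc12a2 exceeded Slc12a4 by 3.74 ± 0.64 in log2(TPM + 1) in 3 of 3 libraries (SD, n = 3; exact sign-flip test, p = 0.25, adjusted p = 0.375). The kidney carriers Slc12a1 and Slc12a3 had at most 5 and 4 reads in a library, and the orphan carriers Slc12a8 and Slc12a9 at most 2 and 1.

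The kinase relay that switches these cotransporters was partly present. WNK kinases sense chloride and cell volume and, through SPAK (Stk39) and OSR1 (Oxsr1), turn NKCC1 on and K-Cl cotransporters off. Of its 12 genes, 5 lay above 1 TPM and 7 passed neither way. Wnk1 had 105, 55.1 and 43.1 TPM, the scaffold Cab39 had 79.6, 45.7 and 65.7, and Cab39l had 69.0, 20.4 and 82.6 (limma, adjusted p = 0.00870, 0.00499 and 0.0239). Klhl3 and Cul3, which form the ligase that degrades WNK kinases, had means of 51.3 ± 26.9 and 87.9 ± 48.0 TPM (SD, n = 3). Of the pair of downstream kinases, Oxsr1 had 77.6, 3.38 and 41.3 TPM and Stk39 had 3.10, 1.36 and 0.780, neither past the threshold (limma, adjusted p = 0.0787 and 0.425). Sgk1, a kinase that raises sodium transport and is also an early response gene, had 6.57, 119 and 10.9 TPM and was high in replicate 2 alone.

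Subunits of the volume-regulated anion channel, the swelling-activated exit for chloride, stood beside them. Of the 5 genes, 4 lay above 1 TPM and 1 below. Lrrc8a, the subunit every channel needs, had 47.4, 51.4 and 117 TPM, Lrrc8b 229, 68.2 and 149, Lrrc8c 61.5, 60.7 and 193, and Lrrc8d 11.4, 24.7 and 13.1 (limma, adjusted p from 0.00951 to 0.0178). Lrrc8e had 1 read in each library. No library was lowest for all of Lrrc8a, Lrrc8b, Lrrc8c and Lrrc8d.

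Of the 10 bicarbonate transporters, Slc4a4 alone lay above 1 TPM, 4 lay below, 4 passed neither way and Slc4a10 had no read. Slc4a4 (ENSMUSG00000060961.14, chromosome 5, 88886818 to 89239653, forward strand), the sodium-bicarbonate cotransporter NBCe1 with which glia set extracellular pH, had 151, 79.5 and 72.3 TPM. Its mean was 101 ± 43.7 TPM (SD, n = 3), 5.59 ± 0.30 (SE) above the tested level (limma, adjusted p = 0.00603). Slc4a7, the electroneutral NBCn1, had 1.499, 9.18 and 2.32 TPM, below Slc4a4 in 3 of 3 libraries, with Slc4a4 minus Slc4a7 at 4.46 ± 1.47 in log2(TPM + 1) (SD, n = 3; exact sign-flip test, p = 0.25, adjusted p = 0.375). The chloride-bicarbonate exchanger Slc4a2 had 1.70, 10.6 and 0.213 TPM from 36, 226 and 4 reads. It shares 1141 exon bases with Fastk on the opposite strand, which had 6, 52 and 0 reads, in the same order of libraries. Slc4a3, the exchanger AE3 of brain and heart, had 5, 4 and 732 reads, or 35.6 TPM in replicate 3 against 0.239 and 0.193 TPM in replicates 1 and 2 (limma, adjusted p = 0.617). Its mean was 0.92 above the tested level in log2(TPM + 1), and -0.72 relative to it without replicate 3 (limma, adjusted p = 0.0404). Slc4a1, the red cell band 3 protein, had 0, 0 and 2 reads, while the erythroid list summed to 33.1, 1.02 and 1.56 TPM, with Alas2 at 200, 2 and 0 reads. The remaining members, Slc4a5, Slc4a8, Slc4a9 and Slc4a11, had at most 6 reads in a library.

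Carbonic anhydrases, which make bicarbonate for these carriers, were also counted. Of 16, 1 lay above 1 TPM, 5 below, 5 neither and 5 had no read. Of all genes tested, 16.4% lay above and 19.9% below. The 1 above was Car5b, a mitochondrial form, at 115, 37.2 and 105 TPM (limma, adjusted p = 0.0129). Car2, the fast cytosolic form, had 160, 324 and 0 reads, or 25.9 and 52.3 TPM in replicates 1 and 2 (limma, adjusted p = 0.254). Car11, a form with no known catalytic activity, had 33.4, 1.88 and 15.5 TPM, and Car13 had 29.8, 2.25 and 5.50.

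Of the 9 sodium-proton exchangers, 1 lay above 1 TPM, 4 below, 2 neither and 2 had no read. Slc9a3, the exchanger of gut and kidney, had 0, 82 and 4 reads, and Slc9a8, of the Golgi, had 0, 10 and 14. Slc9a4, Slc9a7 and Slc9a9 had at most 2 reads in a library, and Slc9a2 and Slc9a5 had none, 3 reads of which correspond to 0.168 to 0.179 TPM and 0.224 to 0.239 TPM. Partners that anchor or activate exchangers were also counted, with 5 of 8 above 1 TPM and 3 neither. Radixin (Rdx) had 269.8 ± 62.1 TPM, moesin (Msn) 115 ± 79.5, the scaffold Slc9a3r1 51.1 ± 12.2, ezrin (Ezr) 42.0 ± 14.9 and the NHE cofactor Chp1 47.2 ± 32.8 (SD, n = 3; limma, adjusted p from 0.00364 to 0.0192). Chp2, a second cofactor, had 407, 4 and 0 reads, and the scaffold Slc9a3r2 had 1.43, 4.54 and 104 TPM.

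Calcium pumps of all 3 compartments were read, and surface sodium-calcium exchangers were nearly unread. Atp2c1 (SPCA1, chromosome 9, 105403539 to 105527319, reverse strand), which loads the Golgi with calcium and manganese, had 82.1, 20.5 and 174 TPM, and Atp2a2 (SERCA2, chromosome 5, 122453513 to 122502225, reverse strand), which fills the endoplasmic reticulum, had 32.9, 13.6 and 119.8 TPM (limma, adjusted p = 0.0412 for each). The order of the libraries was the same for both genes, highest in replicate 3 and lowest in replicate 2. Atp2c1 exceeded Atp2a2 by 0.80 ± 0.43 in log2(TPM + 1) in 3 of 3 libraries (SD, n = 3; exact sign-flip test, p = 0.25, adjusted p = 0.375). Atp2c1 shares 1837 exon bases with Aste1 on the opposite strand, which had 181, 69 and 333 reads, in the same order of libraries, and its part in the Atp2c1 level was not tested. Atp2a1, the SERCA of fast muscle, was not read at all (3 reads of it correspond to 0.338, 0.337 and 0.361 TPM), and Atp2a3, of blood cells and epithelia, had 1, 8 and 5 reads. Atp2c2, the secretory epithelial form, had 2, 0 and 1.

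The surface calcium pumps Atp2b1 and Atp2b4 were highest in different libraries. Atp2b1, the widespread PMCA1, had 65.1, 16.0 and 19.9 TPM and was highest in replicate 1 (limma, adjusted p = 0.0358). Atp2b4, or PMCA4, had 1.86, 11.9 and 52.0 TPM and was highest in replicate 3 (limma, adjusted p = 0.131). The difference of Atp2b1 minus Atp2b4 was 1.19 ± 3.02 in log2(TPM + 1), positive in 2 of 3 libraries (SD, n = 3; exact sign-flip test, p = 0.75, adjusted p = 0.75), and -0.47 without replicate 1. The neuronal PMCA genes Atp2b2 and Atp2b3 had at most 5 and 3 reads. All 3 sodium-calcium exchangers lay below 1 TPM, with Slc8a1, the main exchanger of heart and glia, at 1 read in each library, Slc8a2 at 3, 0 and 0 and Slc8a3 at 2, 3 and 0 (limma, adjusted p from 0.0412 to 0.0428). Neither Slc8a1 nor Slc8a3 exceeded 3 reads in a library, so no difference between them is given.

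Exchangers that also move potassium were each high in at most 1 library. Slc24a5, the NCKX5 exchanger of pigment granules, had 0, 0 and 474 reads, with the 474 reads equal to 85.0 TPM. Its mean was 1.18 above the tested level in log2(TPM + 1), and -0.94 relative to it without replicate 3 (limma, adjusted p = 0.619 and 0.0332). With the deposited log2 TPM and nothing added, its mean over all 3 libraries was -0.91 relative to the level of 1 TPM (limma, adjusted p = 0.773). In the libraries without a read, 3 reads would have been 0.504 and 0.503 TPM. It shares 921 exon bases with Myef2 on the opposite strand, which had 877, 879 and 1030 reads. Slc24a3 had 0, 222 and 37 reads, or 19.0 and 3.41 TPM in replicates 2 and 3. Slc24a2, of neurons and cones, had 1.16, 10.5 and 1.41 TPM. None of the 3 passed the test (limma, adjusted p from 0.317 to 0.619), and Slc24a1 and Slc24a4 had at most 6 and 4 reads.

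Partners of the calcium pumps were counted in a list of 18 genes, 17 of them in the table, of which 8 lay above 1 TPM, 1 below, 7 neither and 1 had no read. Calmodulin, which switches PMCA pumps on, is made from several genes, of which Calm2 and Calm3 had 2452 ± 1105 and 58.3 ± 5.19 TPM (SD, n = 3; limma, adjusted p = 0.00364 for each). The chaperones of the calcium store Canx and Calr had 1144 ± 132 and 46.3 ± 8.59 TPM, and the store-entry inhibitor Saraf had 78.4 ± 29.5 TPM. Of the calcium release channels, Itpr1 and Itpr3 had 22.4 ± 13.8 and 27.0 ± 12.7 TPM, and Itpr2 had 2.76, 25.005 and 5.14. Stim2, a sensor of store filling, had 69.0, 89.1 and 2.38 TPM (limma, adjusted p = 0.101), while the entry channels Orai1, Orai2 and Orai3 had at most 12, 2 and 2 reads. Phospholamban (Pln), the SERCA inhibitor of heart and smooth muscle, had 10, 274 and 0 reads, and sarcolipin (Sln) had none (3 reads correspond to 0.891, 0.889 and 0.951 TPM).

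Aqp1 and Aqp4 were the aquaporins above 1 TPM of 11 members, with 4 below, 4 neither and Aqp12 without a read. Aqp1 (ENSMUSG00000004655.5, chromosome 6, 55336432 to 55348555, forward strand), a water channel of endothelium, red cells and some peripheral neurons and glia, had 162, 34.7 and 270.6 TPM from 1084, 233 and 1701 reads. Its mean was 156 ± 118 TPM (SD, n = 3; limma, adjusted p = 0.0299). Aqp4 (ENSMUSG00000024411.9, chromosome 18, 15389496 to 15410982, reverse strand), the water channel of astrocyte endfeet in brain, had 32.2, 39.0 and 40.1 TPM from 418, 507 and 488 reads, and its mean was 37.1 ± 4.29 TPM (limma, adjusted p = 0.00406). Aqp4 was thus close to level over the libraries, whereas Aqp1 was low in replicate 2. Aqp1 minus Aqp4 was 1.62 ± 1.56 in log2(TPM + 1), positive in 2 of 3 libraries and -0.16 in replicate 2 (SD, n = 3; exact sign-flip test, p = 0.5, adjusted p = 0.545). The 8 endothelial markers, 3 of them above 1 TPM and none without a read, summed to 321, 394 and 314 TPM, highest in replicate 2. Emcn, the highest of them, had 237, 134.6 and 146 TPM and was lowest in replicate 2, as Aqp1 was. No other marker of the list was lowest there. Flt1 had 21.5, 47.7 and 46.4 TPM and Tek 45.5, 80.9 and 13.6 TPM, both highest in replicate 2. The hemoglobin genes Hba-a1 and Hbb-bs had no read. The part of endothelial cells in the Aqp1 level was not tested. Aqp11, of the endoplasmic reticulum, had 19.3, 1.42 and 11.0 TPM (limma, adjusted p = 0.126). The other 7 with a read, Aqp2, Aqp3, Aqp5, Aqp6, Aqp7, Aqp8 and Aqp9, had at most 5 reads in a library.

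The dystrophin complex anchors Aqp4 and the potassium channel Kir4.1 in astrocytes. Of its 10 genes, 7 lay above 1 TPM, 1 below and 2 neither, against 16.4% above and 19.9% below over all genes tested. Dystrophin (Dmd) had 244.6, 250.05 and 201.7 TPM, utrophin (Utrn) 185, 174 and 87.9, and dystroglycan (Dag1) 79.01, 126 and 51.2 (limma, adjusted p from 0.00364 to 0.00752). Sntb1, a syntrophin, had 208, 87.9 and 12.3 TPM, and Kcnj10, the Kir4.1 gene, had 56.6, 289 and 17.9 (limma, adjusted p = 0.0428 and 0.0414). Dtna had 41.6 ± 26.9 TPM (SD, n = 3).

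Over the 7 related lists, which hold 80 genes in the table, 33 lay above 1 TPM (45.2% of 73 tested, against 16.4% of all genes) and 12 below (16.4%, against 19.9%). The lists were chosen with earlier results of these data known, so no conclusion about these pathways is drawn from the higher share above. Without replicate 1 or replicate 2, limma called 0 either way, as for all genes. Without replicate 3 it called 20 above and 7 below.

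**Figure D3:**
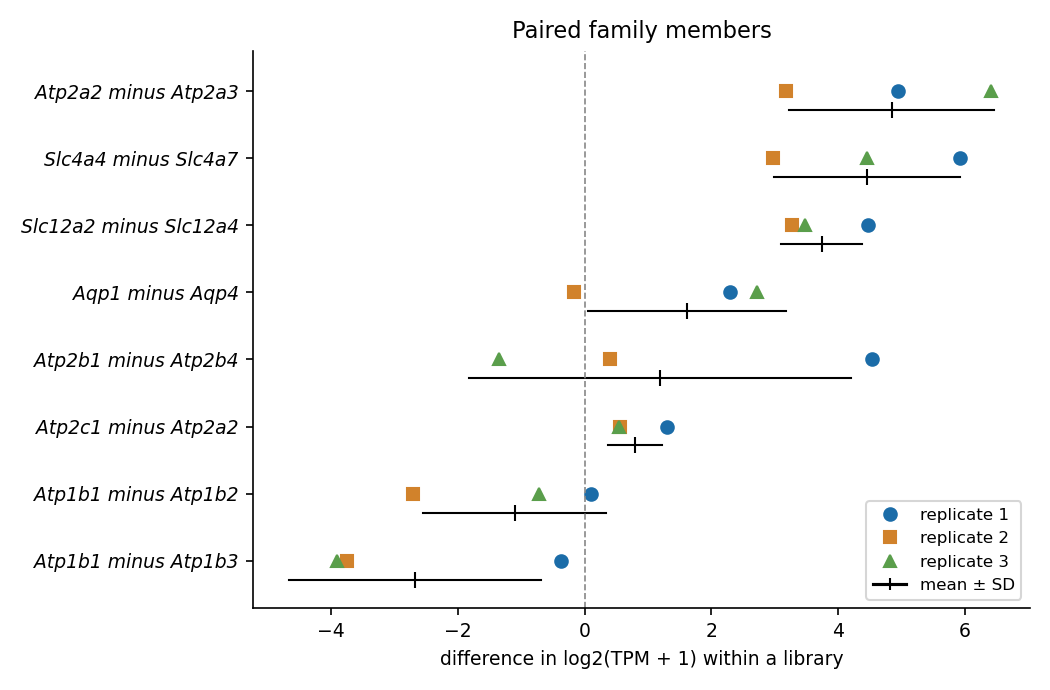
Difference in log2(TPM + 1) between 2 members of a family within each library (x axis), with 1 symbol per replicate and the mean ± SD below it, for 8 of the 12 pairs (y axis). For 5 of these pairs all 3 libraries lay on 1 side of 0, and for 3 pairs they lay on both sides.

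The spread between libraries separated members that were level from members read in 1 library. Among members with a mean of at least 50 TPM, the median SD of log2(TPM + 1) was 0.76 over 10 genes, against 0.92 over 3439 genes of that level in the table. Between 10 and 50 TPM it was 1.80 over 12 members, against 2.22 over 4996 genes. These medians were not tested against each other. Aqp4 had an SD of 0.17, and 1.17% of the 2555 genes within 1.5-fold of its mean had a smaller one. For Slc12a4 and Slc12a2 the share of like genes with a smaller SD was 8.84% and 10.0%. At the other end it was 96.5% for Slc24a5, 86.7% for Slc4a3 and 74.8% for Aqp1. Across the 71 members, Spearman's rho between libraries was 0.72 for replicates 1 and 2, 0.62 for 1 and 3, and 0.75 for 2 and 3, against 0.56, 0.55 and 0.55 over 27567 genes; these describe genes of the same libraries, whose values share library and length, and genes are not independent replicates. Of the 26 members with at least 10 TPM in a library, 7 were highest in replicate 1, 9 in replicate 2 and 10 in replicate 3.

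**Figure D4:**
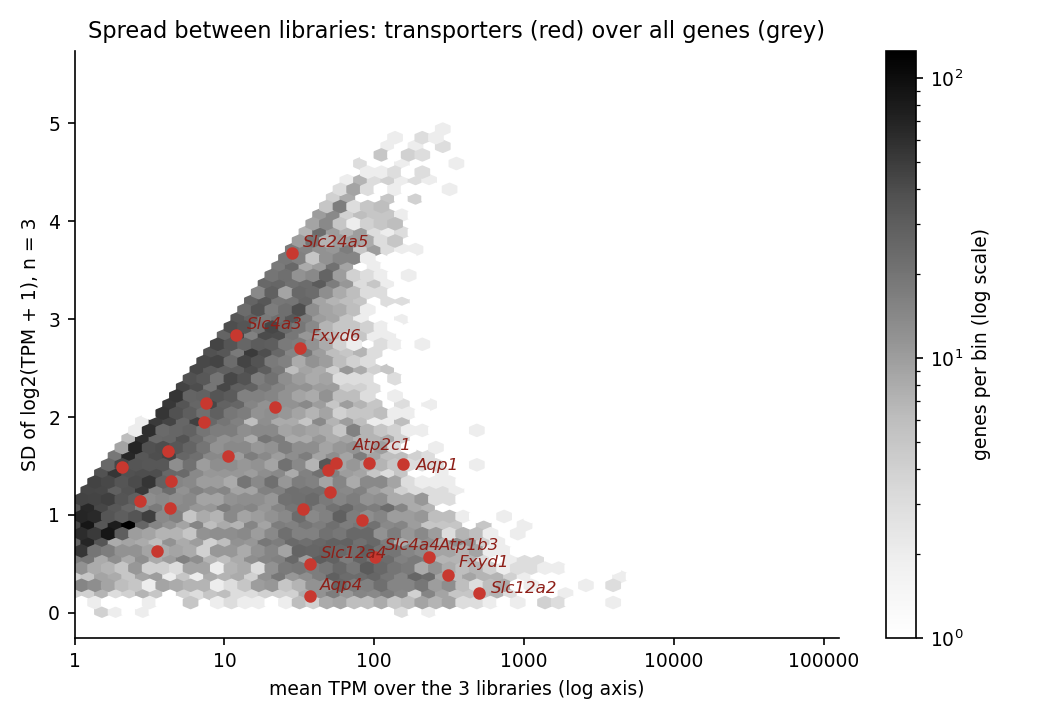
SD of log2(TPM + 1) over the 3 libraries (y axis) against mean TPM (x axis, log) for members in red, over the table's genes averaging 1 TPM or more in grey (genes per bin, log scale). Of the genes at like levels, 1.17% had a smaller SD than Aqp4 and 10.0% than Slc12a2, and 96.5% had a smaller SD than Slc24a5.

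The members under 1 TPM in every library numbered 41, and 36 of them had a read in at least 1 library. None of the 41 had more than 14 reads in a library, and 30 had at most 3 in each. The 5 without a read were Aqp12, Atp2a1, Slc4a10, Slc9a2 and Slc9a5, for which 3 reads correspond to between 0.168 TPM (Slc9a2) and 1.15 TPM (Aqp12). The other 4, between 1 and 10 TPM at their highest, were Slc4a7, Fxyd3, Slc12a7 and Slc9a3. Adjoining members could differ widely: Fxyd2 lies 3509 bases from Fxyd6 on chromosome 9 and had 0.125 against 32.0 TPM, or 0.122 against 3.78 TPM without replicate 3. Aqp2, Aqp5 and Aqp6, side by side on chromosome 15, had means of 0.163, 0.216 and 0.112 TPM.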

How the data were processed

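The deposited values are log2 TPM of 52550 genes, 1 column for each of 3 libraries. The submitters' processing notes name mm10 (GRCm38), the aligner STAR and the counter featureCounts. Their versions, the annotation release, strand setting and filters were not found in the labels. TPM divides by gene length and library total, so abundant genes lower the rest. The values hold 0.25 read added to each gene. With exon lengths from GENCODE M21, whole reads were recovered for 49035 genes by exact M21 ID (relative tolerance 1e-07), and 3134 further genes took a length solved from the values. Coordinates are from M21. A gene was tested if it had a read in at least 1 library (27567 genes, 24983 left out). The test was limma 3.58.1 in R 4.3.3 on log2(TPM + 1), two-sided, against 1 TPM, with 1.10 prior degrees of freedom. It was tried on simulated normal values with upward shifts alone and no floor at no reads. That trial therefore did not cover the calls below 1 TPM. Adding 1 shrinks the differences of low genes. Within-library differences used an exact sign-flip test over libraries, with Benjamini-Hochberg adjustment over 12 of 13 pairs, the other pair having too few reads. Means and SDs use the deposited values; reads are printed where a library had none, and where no library had any, the level of 3 reads. With no molecular identifiers, a level for 3 reads reflects counting error alone. Nothing says the libraries came from separate animals, so p-values measure the spread between these libraries, which may be partly technical. Values in each library are printed for members above 1 TPM or with at least 10 TPM in a library, and for related lists mainly for genes above 1 TPM (up to 6 a list) or with 20 TPM in a library; other list genes named were chosen after their values were seen. The members, lists and pairs were chosen with earlier results of these data known. Python 3.11.15 with pandas 2.3.3, numpy 2.4.6, scipy 1.17.1 and matplotlib 3.10.9 did the rest. Promoter sequences are from RefSeq. Alternatives were the pseudocount, the filter, the level tested, a mean-variance trend, leaving out mitochondrially encoded genes and leaving out each library. Some members and related genes, and the values that need them, are not reported here, though counts, sums over all members and the fits include them.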

Additional observations from a re-analysis of the deposited data

How the results depend on the processing

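The 15 members above 1 TPM were called alike with a pseudocount of 0.1 TPM, with the deposited log2 TPM, without a filter, with genes of at least 0.5 TPM, at a level of 0.5 TPM and without mitochondrially encoded genes. At 5 TPM 13 were called, Atp1b1 being among those lost (limma, adjusted p = 0.0524, over all settings from 1.59e-05 to 0.170), and a mean-variance trend gave 17, with Atp2b4 added. Leaving out 1 replicate gave 0 to 6 members above and 0 to 13 below, and 0 to 20 related genes above and 0 to 7 below. The 26 members and 12 related genes below 1 TPM became 0 and 0 at 0.5 TPM, with the 0.5 TPM filter or without mitochondrially encoded genes; related genes below became 23 without a filter and 24 at 5 TPM. With the filter, genes far below 1 TPM are not tested; for the other settings the cause was not tested. Leaving out 1 replicate put Atp2b1 minus Atp2b4 between -0.47 and 2.46, Slc4a3 between -0.72 and 1.75 and Slc24a5 between -0.94 and 2.24. The lowest value came without replicate 1 for the pair of pumps and without replicate 3 for the other genes. The other 11 of 12 pairs kept their direction. With 2 libraries left the sign-flip test cannot pass. No paired analysis was possible because there is 1 group. Depth limits statements on the 41 members under 1 TPM, which rest on at most 14 reads in a library.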

Other observations

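Slc24a5, read in replicate 3 alone, was set beside pigment cell genes, a list chosen after its values were seen. Dct, a melanin-path enzyme, had 1, 1 and 2716 reads, the last being 100.4 TPM, and Mitf, the master regulator of melanocytes, had 10.4, 0.142 and 79.7 TPM. Slc24a5, at 0, 0 and 474 reads, was thus high in the library where both were highest. The other pigment genes did not share this: Tyr had 0, 0 and 1 reads, Tyrp1 0, 1 and 0, Slc45a2 0, 0 and 2, Oca2 1, 0 and 0, and Pmel and Mlana had none (3 reads correspond to at most 0.547 TPM for Pmel and 2.01 TPM for Mlana). Of the 8 genes, 0 lay above 1 TPM and 4 below in limma's test, and their sum was 10.8, 0.628 and 181 TPM. Whether pigment cells had a part in the Slc24a5 level was not tested.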
